A study of Homo sapiens with 9 samples.

Results

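The genes described here encode the subunits of Polycomb repressive complex 2 (PRC2), and they were read in KHM-5M cells exposed to YK-4-279. The 10 genes were chosen by name: the catalytic subunits EZH1 and EZH2, the core subunits EED and SUZ12, the histone-binding subunits RBBP4 and RBBP7, and the accessory subunits JARID2, AEBP2, MTF2 and PHF19. All 10 were found by gene name among the 58735 genes of the table, and all 10 passed the filter on low counts in every comparison. KHM-5M is an established human thyroid cancer cell line, and YK-4-279 is a small-molecule inhibitor of ETS transcription factors. Poly(A) RNA was sequenced after 24 h in DMSO, the solvent of the drug, or in YK-4-279 at 0.3 μM or 1 μM, with 3 samples in each of the 3 groups. All 9 samples came from this 1 line. The labels do not say whether the 3 samples of a group were grown as separate cultures, so the p-values below measure only the spread between these samples, which may be technical.

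PRC2 places methyl groups on lysine 27 of histone H3, and the trimethylated mark is bound by other Polycomb proteins and goes with silent developmental genes. EZH2 is the catalytic subunit most abundant in dividing cells, while EZH1 is the alternative catalytic subunit and is often the main one in resting cells. EED binds the trimethyl mark and raises the activity of the enzyme, SUZ12 is the scaffold that holds the complex together, and RBBP4 and RBBP7 contact histones. MTF2 and PHF19 belong to the Polycomb-like proteins of the form called PRC2.1, whereas JARID2 and AEBP2 mark the form called PRC2.2.

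Promoter sequence is shown for the 4 subunit genes that fell at 1 μM, because these are the genes the comparisons turn on. Each stretch runs from 130 bases before the annotated start to 20 bases from it, 5′ to 3′ on the strand of the gene, and comes from the RefSeq annotation of GRCh38.p14. Capitals mark a match to the letters searched for E2F, factors that drive genes of S phase, which were TTTGGCGC, TTTCCCGC, TTTCGCGC and TTTGCCGC on either strand. The stretches lie at chr17:42745021-42745170 on the minus strand for EZH1, chr7:148884272-148884421 on the minus strand for EZH2, chr11:86244623-86244772 on the plus strand for EED and chr1:93079153-93079302 on the plus strand for MTF2.
EZH1: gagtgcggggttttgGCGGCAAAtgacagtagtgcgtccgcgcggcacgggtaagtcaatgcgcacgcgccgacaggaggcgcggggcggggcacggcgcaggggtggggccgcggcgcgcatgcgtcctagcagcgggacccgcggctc
EZH2: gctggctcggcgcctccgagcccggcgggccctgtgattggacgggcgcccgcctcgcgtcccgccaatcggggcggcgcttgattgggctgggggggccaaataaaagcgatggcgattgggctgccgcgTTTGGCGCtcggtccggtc
EED: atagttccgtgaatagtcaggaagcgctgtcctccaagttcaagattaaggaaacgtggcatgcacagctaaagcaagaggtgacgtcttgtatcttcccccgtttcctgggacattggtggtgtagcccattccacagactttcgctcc
MTF2: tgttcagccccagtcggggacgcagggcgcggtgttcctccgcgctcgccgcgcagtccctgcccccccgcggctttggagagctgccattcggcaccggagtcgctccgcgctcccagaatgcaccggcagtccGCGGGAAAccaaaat

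The search itself covered 300 bases per start, from 250 before it to 50 from it, in 15 windows of the 10 genes. E2F letters were present for 6 of the 10 genes, each in 1 window, that is 6 of their 15 windows: EZH1, EZH2, SUZ12, AEBP2, MTF2 and PHF19. For AEBP2 and PHF19 that window surrounds a start 36554 and 17708 bases from the deposited edge of the gene. Among all 35116 RefSeq promoter windows, 3.31% held them, and among the 15012 windows of protein-coding genes tested here, 4.82% did. In EZH2 the match lay just inside the transcript, at bases 2 to 9 counted from 1 at the start, and in MTF2 at bases 6 to 13 on the opposite strand. In EZH1 it lay 115 to 108 bases before the start, also on the opposite strand, and the window of EED held none of these letters. The letters CCGGAA on either strand, a narrow form of the sites bound by ETS factors, were found for PHF19 and RBBP7. These were 2 of the 10 genes, that is 2 of their 15 windows, against 17.2% of all windows and 26.2% of the windows of protein-coding genes tested here. None of the 4 genes printed above held CCGGAA in a window searched. Shorter ETS letters, such as GGAA alone, were not searched, so a lack of CCGGAA does not mean a lack of ETS sites. EZH2 had 2 windows, and the one not printed, around a start 836 bases from the deposited gene edge, held none of the letters searched. The letters CCAAT on either strand, known as the CCAAT box, were found for 7 of the 10 genes, in 10 of their 15 windows, and in 34.6% of all windows. Of these, 4 copies stood in the EZH2 window printed in part above. The E2F and CCAAT letters did not overlap in that window. These are matches of letters in reference sequence, and no binding was measured.

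Each sample held 16903251 to 18238884 counts in all, and a gene listed at 0 could still have up to 3 counts, which is 0.164 to 0.177 CPM, counts scaled to the sample total. No sample stood apart in depth, and no pair of samples in a group agreed within sampling noise. Of the thyroid follicular markers, PAX8 was present at 22.8 FPKM (fragments per kilobase of gene, scaled to the sample total) and HHEX at 6.22 FPKM in DMSO, while TG, TSHR, SLC5A5, NKX2-1 and DUOX2 were at or near 0. The keratins KRT8 and KRT18 were at 191 and 132 FPKM, CDH1 was near 0, and the summed leukocyte and endothelial markers stayed at or below 0.0741 and 0.438 FPKM in all 9 samples.

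In DMSO the subunit genes spanned about an order of magnitude per length. RBBP7 had the highest level at 35.8 ± 1.29 FPKM (SD, n = 3), followed by EZH2 at 23.1 ± 0.96, PHF19 at 20.5 ± 0.86, RBBP4 at 15.6 ± 0.22 and SUZ12 at 12.1 ± 0.28 FPKM. The samples of each of these 5 genes lay apart from those of the next gene in the order. EZH1 at 8.71 ± 0.51, MTF2 at 8.39 ± 0.58, JARID2 at 8.30 ± 0.30 and AEBP2 at 8.05 ± 0.74 FPKM overlapped their neighbours and were not separated beyond their spread. EED was the lowest at 3.36 ± 0.18 FPKM. Within groups the coefficient of variation of the 10 genes ran from 1.24% to 11.4%. RBBP4 is the least certain of these levels on strand grounds, since 22.8% of its exon bases lie opposite exons of SYNC. SYNC itself had a mean of 46.2 counts against at least 2227 for RBBP4. That count cannot show how reads over the shared bases were assigned, since the use of strand in counting is not settled. For RBBP7, 2.44% of exon bases lie opposite TXLNG, and for EED 3.16% lie opposite a gene without a symbol that was not in the table.

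**Figure D1:**
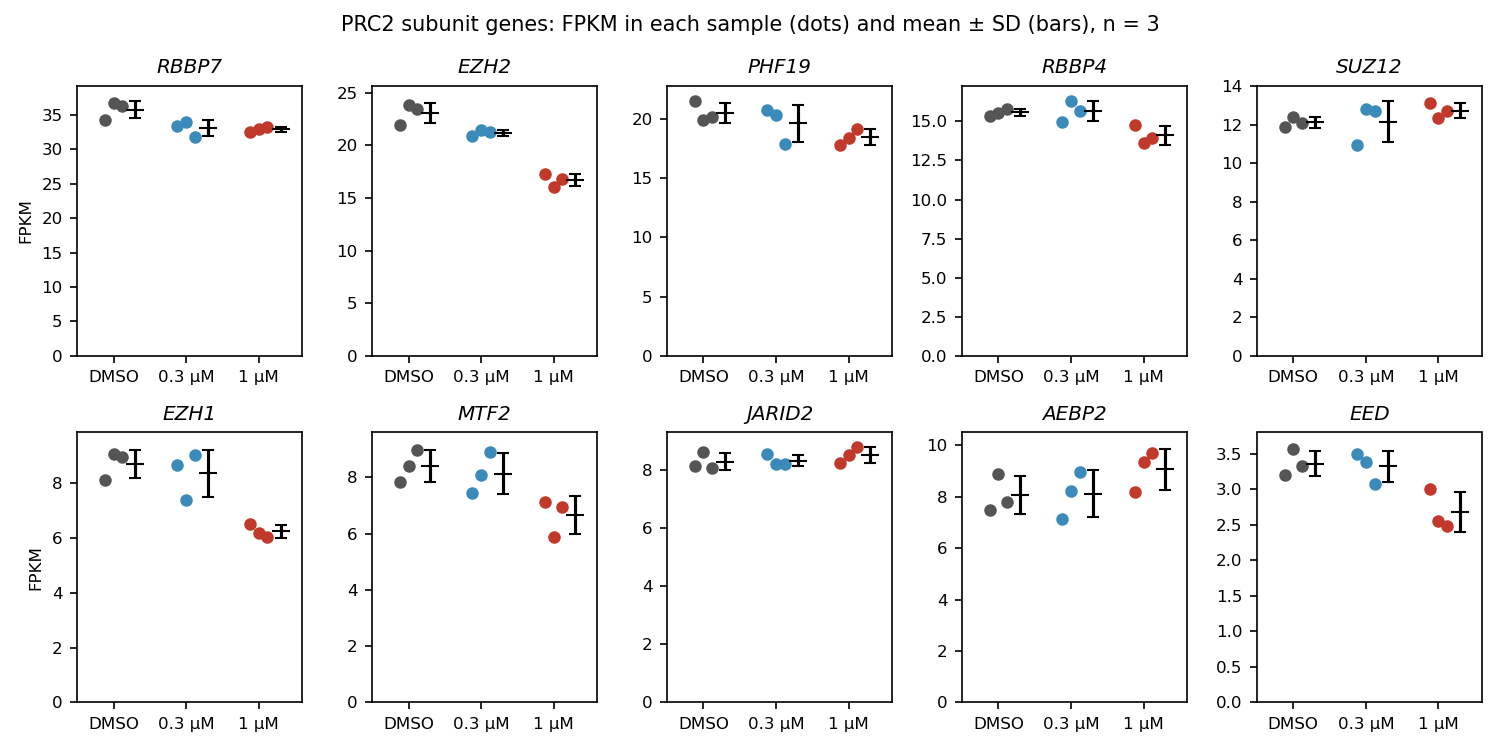
FPKM (vertical axes, from 0) of the 10 PRC2 subunit genes in DMSO, 0.3 μM and 1 μM YK-4-279, ordered by their DMSO level. Dots are samples and bars the mean ± SD of 3 samples; for EZH2 the groups lie in order of dose without overlap, at 22.0 to 23.8, 20.9 to 21.5 and 16.1 to 17.3 FPKM.

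The 1 μM samples were compared with DMSO to ask how the drug changed expression at the higher dose. At 1 μM, EZH1, EZH2, EED and MTF2 fell, and no subunit gene rose, by the edgeR quasi-likelihood test at a Benjamini-Hochberg adjusted p under 0.05. These 4 of 10 genes compare with 17.6% of all 15617 genes called in either direction and 9.95% called lower. The losses were moderate: none of the 10 genes changed by 1.5-fold in either direction, whatever its p, while 3.91% of protein-coding genes did so with an adjusted p under 0.05. The median log2 fold change of the 10 genes was -0.17, beside -0.01 for all genes tested. In RNA from whole cultures, fewer cells of a kind and less RNA per cell cannot be told apart.

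Both catalytic subunits fell at 1 μM. Gene positions here and below are those of the table, on GRCh38. EZH2 (ENSG00000106462, chr7:148807383-148884321, minus strand) was at 22.0, 23.8 and 23.4 FPKM in the DMSO samples and at 17.3, 16.1 and 16.8 FPKM in the 1 μM samples. Every treated sample lay below every DMSO sample. EZH2 fell by 28.4%, a log2 fold change of -0.48 (SE 0.06, adjusted p = 0.000159 by edgeR). EZH1 (ENSG00000108799, chr17:42700275-42745049, minus strand) was at 8.12, 9.05 and 8.95 FPKM in DMSO and at 6.52, 6.17 and 6.04 FPKM at 1 μM, again without overlap. EZH1 fell by 29.1%, a log2 fold change of -0.50 (SE 0.07, adjusted p = 0.000348 by edgeR). In all 12 alternative fits both genes passed the threshold, with log2 fold changes of -0.51 to -0.45 for EZH2 and -0.54 to -0.46 for EZH1. These were not among the largest changes in the cells: of the 1554 genes called lower, 834 fell by more than EZH2 and 802 by more than EZH1.

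EED (ENSG00000074266, chr11:86244544-86278813, plus strand), the reader of the trimethyl mark, also fell, with less certainty. It was at 3.20, 3.56 and 3.32 FPKM in DMSO and at 2.999, 2.56 and 2.48 FPKM at 1 μM, so that the groups lay apart, with 1 treated sample close to the lowest DMSO sample. Its log2 fold change was -0.34 (SE 0.10, adjusted p = 0.0238 by edgeR). Of the subunit genes EED had the fewest reads, 294 to 453 per sample in these groups, and its call depended on single samples. Without DMSO replicate 2 or 3 the adjusted p was 0.0544 or 0.0673, and without 1 μM replicate 2 or 3 it was 0.0915 or 0.113. DESeq2 gave a log2 fold change of -0.33 with an adjusted p of 0.0561, and limma on FPKM gave -0.32 with an adjusted p of 0.108.

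SUZ12 (ENSG00000178691, chr17:31937018-32001045, plus strand), the scaffold, did not pass the test. Its levels were 11.9, 12.4 and 12.1 FPKM in DMSO and 13.1, 12.3 and 12.7 FPKM at 1 μM. The log2 fold change of SUZ12 was 0.05 with a 95% confidence interval of -0.07 to 0.18 and an adjusted p of 0.579 by edgeR, so the interval does not reach the falls fitted for EZH1 and EZH2. SUZ12 has a transcribed partial copy, the pseudogene SUZ12P1, which can share reads with it. SUZ12P1 had 249, 224 and 247 counts in DMSO and 151, 120 and 173 counts at 1 μM, all lower, with a log2 fold change of -0.72 (SE 0.14, adjusted p = 0.0035 by edgeR). When the counts of both were summed, the log2 fold change was -0.038 (adjusted p = 0.703), so that the direction for SUZ12 turned while its distance from 0 stayed small.

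RBBP4 and RBBP7, near-identical proteins that PRC2 shares with other chromatin complexes, were lower without passing the threshold. RBBP4 (ENSG00000162521, chr1:32651142-32686211, plus strand) was at 15.4, 15.6 and 15.8 FPKM in DMSO and at 14.7, 13.6 and 14.0 FPKM at 1 μM, with a log2 fold change of -0.16 (SE 0.06, adjusted p = 0.0609 by edgeR). RBBP7 (ENSG00000102054, chrX:16839283-16870414, minus strand) was at 34.3, 36.7 and 36.3 FPKM in DMSO and at 32.4, 33.0 and 33.3 FPKM at 1 μM, with a log2 fold change of -0.14 (SE 0.05, adjusted p = 0.0886 by edgeR). For both genes the treated samples lay below the DMSO samples, and the 95% confidence intervals, -0.28 to -0.04 and -0.25 to -0.02, lay below 0 before adjustment for the number of genes. RBBP4 has 6 pseudogenes in the table, of which RBBP4P1 had at most 47 counts and the others at most 6, and summing them with RBBP4 left the log2 fold change at -0.16.

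The accessory subunits did not move together. MTF2 (ENSG00000143033, chr1:93079235-93139081, plus strand), a Polycomb-like protein that brings PRC2.1 to CpG islands, was at 7.82, 8.39 and 8.98 FPKM in DMSO and at 7.12, 5.87 and 6.95 FPKM at 1 μM. It fell by 21.7%, a log2 fold change of -0.35 (SE 0.08, adjusted p = 0.0109 by edgeR). That call was lost without DMSO replicate 3 (adjusted p = 0.0668), without 1 μM replicate 2 (adjusted p = 0.0607) and in limma on FPKM (adjusted p = 0.0831). PHF19 (ENSG00000119403, chr9:120855652-120894896, minus strand), its close relative, was at 21.5, 19.9 and 20.2 FPKM in DMSO and at 17.8, 18.4 and 19.1 FPKM at 1 μM, with a log2 fold change of -0.17 (SE 0.06, adjusted p = 0.0615 by edgeR). Without DMSO replicate 2, PHF19 passed the threshold at -0.19 (adjusted p = 0.0336).

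The subunits that mark PRC2.2 had positive differences that did not pass. JARID2 (ENSG00000008083, chr6:15246296-15522040, plus strand), which lacks the demethylase activity of its protein family and links PRC2 to ubiquitinated histone H2A, was at 8.17, 8.64 and 8.09 FPKM in DMSO and at 8.26, 8.53 and 8.82 FPKM at 1 μM. Its log2 fold change was 0.02, with a 95% confidence interval of -0.12 to 0.17. AEBP2 (ENSG00000139154, chr12:19404045-19720801, plus strand), a zinc finger protein that stabilises the complex, was at 7.48, 8.88 and 7.79 FPKM in DMSO and at 8.17, 9.33 and 9.69 FPKM at 1 μM, and the groups overlapped. Its log2 fold change was 0.15, with a 95% confidence interval of -0.03 to 0.33 and an adjusted p of 0.226 by edgeR. DMSO replicate 2 carried the highest AEBP2 level of its group, and without that sample AEBP2 passed the threshold at 0.24 (adjusted p = 0.0413).

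By CPM scaled with TMM factors, 7 of the 10 genes lay lower at 1 μM without overlap between the groups, 1 (SUZ12) lay higher without overlap, and 2 (JARID2 and AEBP2) overlapped. Among all genes tested, 16.3% lay lower and 21.1% higher without overlap. For SUZ12 the gap was narrow, between 81.2 and 81.3 CPM, and its FPKM values overlapped. At an unadjusted p under 0.05, 7 of the 10 genes were lower and 0 higher, beside 16.7% of all genes tested that were lower, and DESeq2 called 3 lower and 0 higher.

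**Figure D2:**
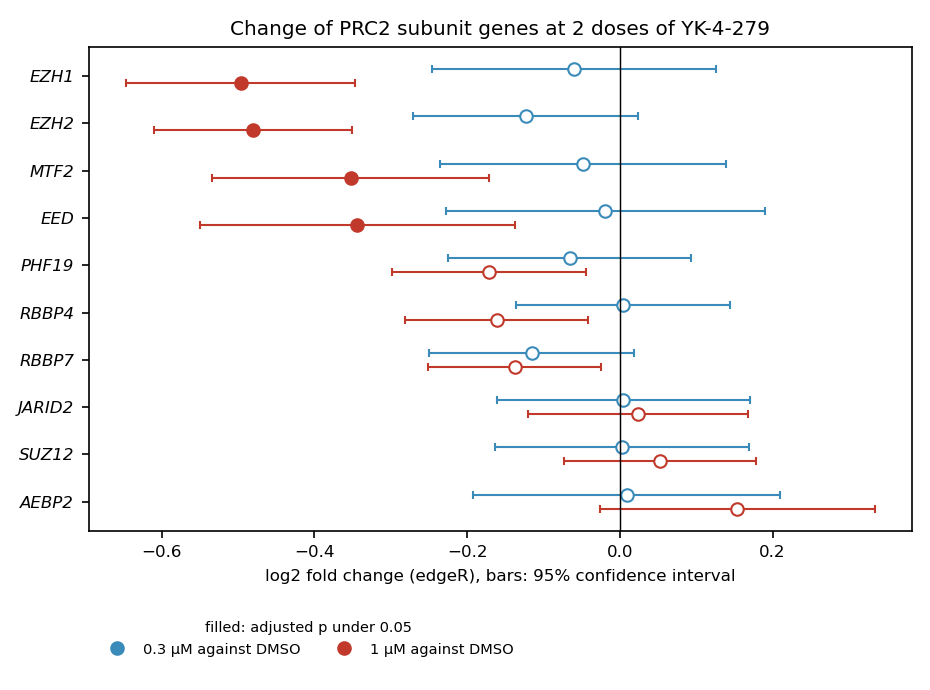
Log2 fold change against DMSO (horizontal axis) of the 10 PRC2 subunit genes at 0.3 μM and 1 μM, from edgeR. Bars are 95% confidence intervals over 3 against 3 samples and filled points have an adjusted p under 0.05: EZH1, EZH2, MTF2 and EED at 1 μM, and none at 0.3 μM.

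At 0.3 μM no subunit gene passed the test against the same DMSO samples. edgeR called 0 of the 10 genes and 0% of all 15762 genes tested. At an unadjusted p under 0.05 it listed 0 of the 10 genes and 594 of all genes (3.77%), and DESeq2 called 0 of the 10 and 1 of all genes. The log2 fold changes of the 10 genes ran from -0.12 to 0.01, with a median of -0.03 and adjusted p between 0.995 and 0.998. EZH2 was at 20.9, 21.5 and 21.2 FPKM, below all DMSO samples, with a log2 fold change of -0.12 and a 95% confidence interval of -0.27 to 0.02. RBBP7 was at 33.4, 34.0 and 31.8 FPKM, also below all DMSO samples, with a log2 fold change of -0.12 and a 95% confidence interval of -0.25 to 0.02. These 2 of 10 genes without overlap compare with 4.23% of all genes that lay lower without overlap. EZH1 was at 8.66, 7.40 and 9.03 FPKM, EED at 3.50, 3.39 and 3.08 FPKM and MTF2 at 7.42, 8.07 and 8.89 FPKM, each within or across the range of its DMSO samples. The 95% confidence intervals of these 3 genes at 0.3 μM all included 0, with lower ends of -0.25, -0.23 and -0.24.

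The doses were compared directly to ask which genes differed between them. Between 0.3 μM and 1 μM, EZH1, EZH2 and MTF2 were lower at the higher dose and no subunit gene was higher. These 3 of 10 genes compare with 12.6% of all 15583 genes called and 6.75% called lower, and the median log2 fold change was -0.12 for the 10 genes and 0.003 for all genes. EZH2 had a log2 fold change of -0.35 (SE 0.06, adjusted p = 0.0023) and EZH1 one of -0.43 (SE 0.08, adjusted p = 0.00319) by edgeR. For EZH2 this call stood in all 12 alternative fits, and for EZH1 in all but limma on FPKM (adjusted p = 0.0617). For MTF2 the value was -0.29 (SE 0.09, adjusted p = 0.0437), a call lost without 0.3 μM replicate 2 (0.101) or 3 (0.103), without any 1 μM sample (0.0507, 0.198 and 0.0826 without replicates 1, 2 and 3) and in limma (0.172). EED missed the threshold at -0.31 (SE 0.10, adjusted p = 0.0527) and passed it without 0.3 μM replicate 3 (0.0236) or 1 μM replicate 1 (0.0392), in the fit to all 9 samples (0.045) and with the replicate number as a block (0.0487). In this comparison 5 of the 10 genes lay lower at 1 μM without overlap (EZH1, EZH2, EED, RBBP4 and MTF2), beside 14.8% of all genes. RBBP7, which was already below DMSO at 0.3 μM, had a log2 fold change between the doses of -0.01 with a 95% confidence interval of -0.13 to 0.11. The comparisons of each dose with DMSO share the DMSO samples, and the comparison of the doses shares the treated ones, so their values are not independent of one another.

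Ratios between subunit genes were taken within each sample on the FPKM scale and are given without a test. EZH2 stood at 2.71, 2.63 and 2.62 times EZH1 in DMSO, at 2.42, 2.90 and 2.35 times at 0.3 μM and at 2.65, 2.61 and 2.78 times at 1 μM. The catalytic subunits thus kept overlapping ratios while both fell, with means of 2.65 ± 0.05, 2.55 ± 0.30 and 2.68 ± 0.09 (SD, n = 3). The ratio of EZH2 to its scaffold SUZ12, chosen after the values were seen, was 1.85, 1.91 and 1.94 in DMSO, 1.91, 1.67 and 1.67 at 0.3 μM and 1.32, 1.30 and 1.32 at 1 μM. At 1 μM it lay below the ratio in every other sample. RBBP4 to RBBP7 averaged 0.436 ± 0.012 in DMSO, 0.474 ± 0.023 at 0.3 μM and 0.429 ± 0.023 at 1 μM.

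**Figure D3:**
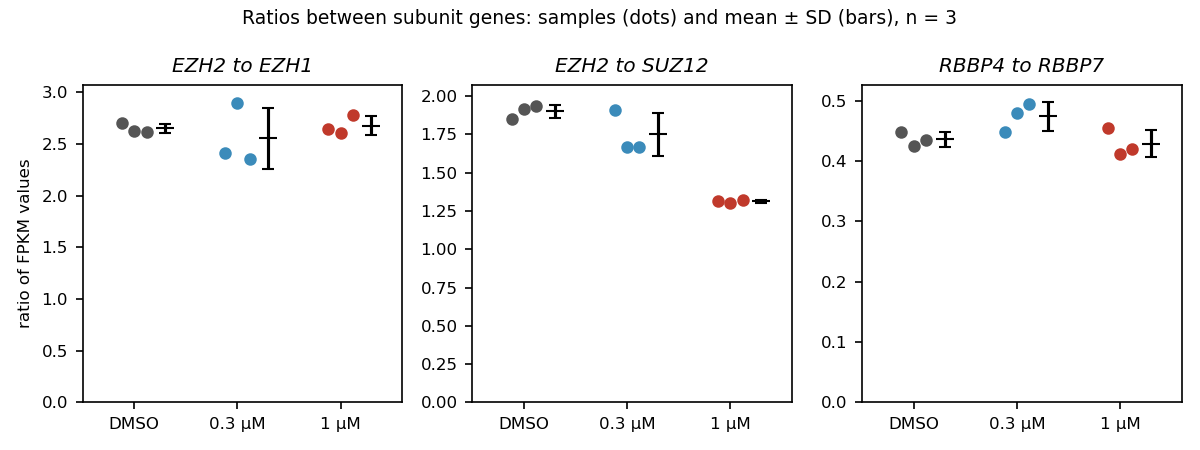
Ratios of FPKM values between subunit genes (vertical axes, from 0) in each sample (dots), with mean ± SD of 3 samples (bars). EZH2 to EZH1 averages 2.65, 2.55 and 2.68 in DMSO, 0.3 μM and 1 μM, whereas EZH2 to SUZ12 averages 1.90, 1.75 and 1.31.

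The genes whose level followed that of EZH2 most closely were found by Pearson's r of TMM-scaled log2 CPM over the 9 samples, among 12768 protein-coding genes. They were PNISR, LSM8, FAM111A, HNRNPDL and NKTR, with r of 0.993, 0.992, 0.991, 0.989 and 0.989. PNISR, NKTR and HNRNPDL encode RNA-binding or splicing-related proteins, LSM8 is a part of the U6 small nuclear ribonucleoprotein, and FAM111A is a protease that acts at replication forks. Their log2 fold changes at 1 μM were -0.91, -0.48, -0.62, -0.69 and -0.93. The 9 samples fall into 3 dose groups, so that any gene that fell with dose follows EZH2 by this measure. Among the other subunit genes, r with EZH2 was highest for EZH1 at 0.92 and lowest for AEBP2 at -0.54.

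PRC2 works with further partners and beside other chromatin enzymes, which were read from lists at 1 μM against DMSO. The counts below stand beside 17.6% of all genes called, 7.67% higher and 9.95% lower. Of the other PRC2 partners, LCORL, a relative of LCOR that joins PRC2.1, fell with a log2 fold change of -0.35 (SE 0.10, adjusted p = 0.0305 by edgeR), and 1 of 4 genes tested was called. PHF1, the remaining Polycomb-like protein, had a log2 fold change of -0.11, LCOR one of 0.15 and EPOP one of 0.35, none of them past the threshold. EZHIP, an inhibitor of PRC2 normally found in germ cells, had no counts in any sample. With a sample left out, LCORL was called only without DMSO replicate 1 (adjusted p = 0.00923), and its call was lost in the other 5 fits. Without DMSO replicate 2, LCOR was called higher instead (0.20, adjusted p = 0.0333).

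PRC1 is the other Polycomb complex and places ubiquitin on histone H2A. All 24 of its genes on the list were tested, and 3 rose and 2 fell, with a median log2 fold change of -0.003, a share of calls near that of all genes. PHC2 (0.32), RYBP (0.29) and BCOR (0.26) rose, whereas SCML2 (-0.36) and PHC1 (-0.28) fell. PHC1 and PHC2 are alternative polyhomeotic subunits, and their levels went in opposite directions, from 5.43 to 4.52 FPKM for PHC1 and from 20.9 to 26.4 FPKM for PHC2. With DESeq2 or the replicate block PHC2, RYBP and BCOR were called higher and no PRC1 gene lower. Left-out samples gave 1 to 5 calls, with 3 without DMSO replicate 3, 2 without 1 μM replicate 1 or 2 and 1 without 1 μM replicate 3.

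A list of 11 genes held enzymes that act against Polycomb marks and their cofactors, and the calls, 1 higher and 1 lower, were both cofactors. The share of calls was near that of all genes. The demethylases of the mark did not pass in the main fit. KDM6A had a log2 fold change of -0.03 and KDM6B one of 0.25 (adjusted p = 0.0859 by edgeR). KDM6B was called higher by edgeR without DMSO replicate 1 (0.34, adjusted p = 0.0246) and with no filter (0.27, adjusted p = 0.0353). ASXL2 rose (0.22) and ASXL1 fell (-0.37, from 26.7 to 20.9 FPKM), both partners of the H2A deubiquitinase BAP1, which removes the mark placed by PRC1. No acetyltransferase or methyltransferase on the list was called in the main edgeR fit. This split of 1 and 1 became 3 higher and 1 lower with RLE size factors or with DESeq2, where the acetyltransferases EP300 and CREBBP joined ASXL2. Without DMSO replicate 3 or any one of the 1 μM samples the only call was the fall of ASXL1. By edgeR, EP300 and CREBBP also rose with no filter. CREBBP was called higher in the joint fit (0.24, adjusted p = 0.0389) and without DMSO replicate 1 (0.33, adjusted p = 0.00555). The methyltransferase KMT2B was called lower without DMSO replicate 2 (-0.22, adjusted p = 0.0227).

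Some enzymes of other repressive marks fell as well. Of 9 tested, 4 fell and none rose, with a median log2 fold change of -0.18: the DNA methyltransferases DNMT3B (-0.53) and DNMT1 (-0.18), their partner UHRF1 (-0.25) and the H3 lysine 9 methyltransferase SUV39H1 (-0.50). At an unadjusted p under 0.05, 5 fell and 0 rose, and DESeq2 called 4 lower and 0 higher. The count by edgeR was 2 without DMSO replicate 1 or 3 and without 1 μM replicate 1 or 3. Only DNMT3B was called in every alternative fit, and limma called none of the others. UHRF1 was also lost without 1 μM replicate 3. SUV39H1 was lost without DMSO replicate 1 or 3 and without 1 μM replicate 1 or 2. DNMT1 was lost without DMSO replicate 1 or 3, without 1 μM replicate 1 or 3, with no filter and with the replicate block. Of 21 genes for the other complexes that hold RBBP4 or RBBP7, 1 rose (GATAD2A, 0.21) and 3 fell: CHAF1B (-0.36), GATAD2B (-0.26) and CHAF1A (-0.25). The share of calls on that list was near that of all genes. The CHAF1 genes encode the chromatin assembly factor that loads histones at replication forks. That count of 4 became 1 without DMSO replicate 3 or 1 μM replicate 1 or 3 and 2 without 1 μM replicate 2.

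HOX genes, the classical targets of Polycomb silencing, were not called higher at 1 μM among those with enough counts for a test. The rest had too few counts, so the calls do not cover silent HOX genes. Of 39 HOX genes 28 passed the filter, 2 fell (HOXB3, -0.63, and HOXD10, -0.35) and 0 rose by edgeR, with a median log2 fold change of 0.06. At an unadjusted p under 0.05, 5 fell and 0 rose, DESeq2 called 2 lower and 0 higher, and without 1 μM replicate 2 only 1 was called. Of 16 genes known to be repressed by EZH2 in other cancers, 13 were tested, and 2 rose and 3 fell with a median of 0.04. CDH1, RUNX3 and SFRP1, at 0.0275, 0.105 and 0.0041 FPKM in DMSO, were too low to be tested. The genes called were already expressed in DMSO, at 7.30 to 257 FPKM. Whether EZH2 represses them in these cells was not tested. CDKN2B (0.50, from 7.30 to 10.5 FPKM) and DAB2IP (0.23) rose, whereas IGFBP3 (-0.34), TIMP3 (-0.27) and CDKN2A (-0.27) fell. CDKN2B and CDKN2A, neighbours that encode cyclin-dependent kinase inhibitors, thus differed in direction. Without 1 μM replicate 2 or 3, 1 rose and 2 fell. Histone methylation was not measured in these samples.

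Most of the proliferation genes fell too. Of 26 tested, 16 fell and 2 rose at 1 μM, with a median log2 fold change of -0.29. CDK1 (-0.68), E2F8 (-0.56) and TOP2A (-0.55) fell most, while AURKA (0.23) and CCNB1 (0.21) rose and MKI67 had -0.16 (adjusted p = 0.0741 by edgeR). The summed level of the list was 1393 to 1432 FPKM in DMSO, 1313 to 1406 FPKM at 0.3 μM and 1254 to 1266 FPKM at 1 μM. The summed level of the 10 PRC2 subunit genes was 140 to 147, 136 to 140 and 126 to 130 FPKM in the same groups. The part of proliferation in the values of the subunit genes was not tested. Of the lists of cell type markers, only that of fibroblasts held a call at 1 μM against DMSO: COL1A1 fell from 47.8 to 36.4 FPKM. LUM, the only other gene tested on that list, went from 3.12 to 3.98 FPKM without passing (adjusted p = 0.11 by edgeR), COL1A2 and DCN were near 0, and the list median was -0.04.

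**Figure D4:**
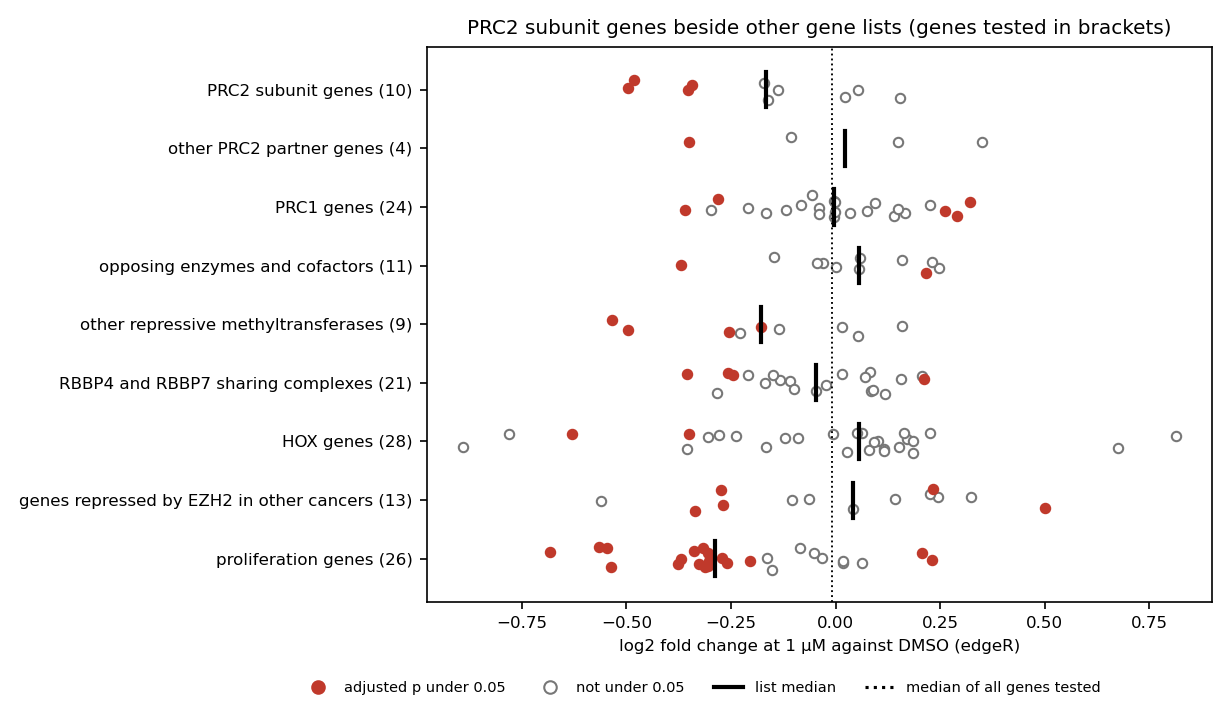
Log2 fold change at 1 μM against DMSO (horizontal axis) of each tested gene, by list, with the number tested in brackets. Filled points have an adjusted p under 0.05 by edgeR, thick bars are list medians (-0.17 for the PRC2 subunit genes, -0.29 for the proliferation genes) and the dotted line is the median of all genes tested, -0.01; vertical scatter within a list is only for legibility.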

How the data were processed

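RNA from KHM-5M cells was sequenced in 9 samples, 3 in each of 3 groups, and grouped by the treatment in the labels. The authors aligned clean reads to GRCh38 with HISAT2 (2.0.5 per the submitters' processing notes) and deposited 1 table with whole-number counts per gene, not normalized, and FPKM values per sample. The methods name HTseq for counting and a stranded kit, whereas the processing notes name featureCounts 1.5.0-p3 and the labels another TruSeq kit, so that whether strand was used is not settled and genes on opposite strands may share reads. The methods mention 2 biological replicates per condition and the labels 3. The deposited FPKM values were count divided by gene length and by the sample total, up to a factor near 1 per sample. The deposited gene length is another column and was used only to check the ratios with counts divided by gene length. The ratios printed came from the deposited FPKM values. The authors' columns of group means, fold changes and p-values from DESeq2 1.20.0 were not used.

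Tests were run with edgeR 4.0.16 in R 4.3.3 on the deposited counts: filterByExpr with a minimum count of 10, TMM, glmQLFit and glmQLFTest on the groups compared, with Benjamini-Hochberg adjustment over all genes tested. A gene was called at an adjusted p under 0.05, and the fold limit of the study for protein-coding genes (absolute log2 fold change over 0.587) is given beside it, taken here with the adjusted p, where the methods write a P-value. Alternatives were DESeq2 1.42.0, RLE size factors, a block for the replicate number, a joint fit to all 9 samples, no filter beyond a total count of 1, limma 3.58.1 on log2(FPKM + 0.1), each sample left out in turn, unadjusted p and counts summed with pseudogenes. An exact permutation test of 3 against 3 samples cannot go below 0.1 and was not used. Scripts were tested on simulated data. Python 3.11.15 with pandas 2.3.3 and matplotlib 3.10.9 read the sequences and drew the figures. Promoter windows came from RefSeq (GRCh38.p14), with at least 1 window for each of the 10 genes, and exon overlaps from the GRCh38 annotation.

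The genes named were all 10 subunit genes, up to 3 called genes with the largest rise and 3 with the largest fall in each other list, all PRC2 partners, KDM6A and KDM6B, and the 5 genes most like EZH2. DNMT1, EP300, CREBBP, KMT2B, MKI67, RUNX3, SFRP1, SUZ12P1, SYNC, TXLNG and the markers were named after their values were seen. The subunit genes and the lists were chosen with earlier results of these data known. Counting error alone is covered by the limit for a count of 0.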

Additional observations from a re-analysis of the deposited data

How the results depend on the processing

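The falls of EZH1 and EZH2 at 1 μM were called in every alternative fit; those of EED and MTF2 rest on 3 samples a group and on the choice of test, as given with their values. At 0.3 μM edgeR called no subunit gene in any alternative, and 3 samples a group limit what could be detected there. Over all alternatives, 322 fold changes of the subunit genes kept direction and side of the threshold, 16 lost and 6 gained a call, and 22 changed sign, all of them uncalled. Where no cause is named, the cause was not tested.

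Replicate numbers did not clearly pair the samples: over 15242 genes, deviations of same-numbered samples correlated between -0.06 and 0.13, and of others between -0.09 and 0.09. Between DMSO and 0.3 μM all same-numbered samples had positive values (0.125, 0.093 and 0.038), and the others ran from -0.090 to 0.00098. With 1 μM the values were -0.064, -0.029 and 0.072 against DMSO and -0.019, -0.045 and -0.027 against 0.3 μM for samples of the same replicate number. With the number as a block, EED passed between the doses (adjusted p = 0.0487), SUZ12 at 0.3 μM became -4.99e-06, all genes called at 0.3 μM became 1, and calls at 1 μM became 3 for PRC1, 1 for the opposing enzymes and 2 for the complexes with RBBP4 or RBBP7; no other subunit call changed.

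All genes called at 0.3 μM numbered 1 with DESeq2, 30 with no filter and 594 unadjusted, and 0 to 4 with a sample left out (1 without DMSO replicate 2, 4 without 0.3 μM replicate 3). At 1 μM against DMSO they numbered 2752, and 1452 with limma, 504 past 1.5-fold, 4985 unadjusted and 1683 to 2977 with a sample left out (fewest without DMSO replicate 3, 1755 and 1805 without 1 μM replicate 2 and 3). Between the doses they numbered 1963, and 467, 306, 4301 and 948 to 1884 in the same order (1253 without 0.3 μM replicate 2, and 1164, 1118 and 948 without 1 μM replicates 1 to 3). The subunit genes called at 1 μM were 2 with limma, 0 past 1.5-fold, 7 unadjusted and 2 to 5 with a sample left out (2 without DMSO replicate 3 or 1 μM replicate 2), and between the doses 1, 0, 5 and 2 to 3. limma tested FPKM, a different scale.

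For the other lists at 1 μM, limma, the 1.5-fold rule, unadjusted p and left-out samples gave 0, 0, 3 and 0 to 1 calls for other PRC2 partners, 2, 0, 10 and 1 to 5 for PRC1, 1, 0, 5 and 1 to 3 for opposing enzymes and cofactors, and 1, 0, 9 and 1 to 4 for complexes with RBBP4 or RBBP7. limma, the 1.5-fold rule and left-out samples gave 1, 0 and 2 to 4 for other methyltransferases and 3, 0 and 3 to 5 for genes repressed by EZH2. HOX genes had 1 call past 1.5-fold, 5 unadjusted and 1 to 3 with a sample left out, and proliferation genes had 1 call past 1.5-fold. DESeq2 gave 3 calls for PRC1 and 4 for opposing enzymes, RLE 4 and no filter 5 for the latter.

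With a sample left out, sign changed at 0.3 μM for EZH1 (-0.12 to 0.023), EED (-0.057 to 0.034), SUZ12 (-0.035 to 0.075), RBBP4 (-0.022 to 0.036), JARID2 (-0.014 to 0.038), AEBP2 (-0.067 to 0.095), MTF2 (-0.12 to 0.014) and PHF19 (-0.11 to 0.00029), and between the doses for SUZ12 (-0.0082 to 0.10) and RBBP7 (-0.044 to 0.0090). Summed with SUZ12P1, SUZ12 became -0.033 at 0.3 μM and -0.038 at 1 μM.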
